A study of Mus musculus with 39 samples.

Results

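The genes described here are 8 genes of B cells and immunoglobulins, taken as the rows of the deposited count table whose symbol is Cd79a, Cd79b, Ms4a1, Pax5, Ighm, Igkc, Jchain or Cd22. All 8 were found among the 39676 genes of the table, of which 28827 had at least 1 count. The samples were 39 tumours of AB1-HA, a mouse mesothelioma cell line, grown under the skin of BALB/c mice, with each tumour from a separate mouse. PBS was given to 10 mice, tretinoin to 9, ICT (immune checkpoint antibodies to CTLA-4 and PD-L1) to 10, and tretinoin+ICT to 10. By the labels, tretinoin was given at 5 mg/kg in 5 doses from day 4. Also by the labels, the antibodies were given at 100 ug each, starting on day 7, and the tumour was resected on day 9. The paper's accounts of the tretinoin dose and number of doses differ between experiments and from the labels, which are followed here. In the tretinoin+ICT group the tumour that stayed in the mouse was followed, and 6 mice were responders and 4 were non-responders. By the study's methods, both sexes of young adult mice were used, and DMSO in PBS was the vehicle of tretinoin. AB1-HA is 1 cell line and carries the influenza haemagglutinin as a model antigen, and p-values below measure the spread between these tumours.

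B cells recognise antigen through a membrane immunoglobulin that signals through the Cd79a and Cd79b chains. A resting B cell displays IgM, made of Ighm heavy chains and, in the mouse, mostly Igkc light chains. After activation it may switch to another heavy chain class and become a plasma cell, which secretes large amounts of immunoglobulin and, for IgM and IgA, joins the units with the J chain. Within tumours B cells are known from scattered cells and from lymphoid aggregates.

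Transcripts of B cells were scarce in these tumours. Over the 39 tumours the median level was 2.56 CPM (counts scaled to the library size after TMM normalization) for Cd79a, 2.14 CPM for Cd79b, 1.52 CPM for Pax5, 0.833 CPM for Ms4a1 and 0.758 CPM for Jchain. The median was 3.03 CPM for Igkc and 6.73 CPM for Cd22. Ighm stood above the other 7, with a median of 46.7 CPM. Total counts were 14033046 to 37951183 per tumour with a median of 18548168, so that the lowest count of a member in any tumour was 2 for Jchain, 3 for Ms4a1 and 13 for Pax5. Single values of Jchain and Ms4a1 therefore carry a large counting error. In bulk tumours fewer cells of a type and less RNA per cell cannot be told apart.

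The promoter windows of Cd79a, Jchain and Cd22 are shown because these genes stand for the receptor, the secreted immunoglobulin and the inhibitory co-receptor, and because their levels followed different genes across the tumours. The RefSeq table on GRCm38.p6 held windows for 4 of the 8 genes (these and Pax5). Only bases outside the exons of the gene in GENCODE M21 are printed, 5′ to 3′ on the strand of the gene, with a match to a searched motif in capitals.
Cd79a, chr7:24897247-24897380, plus strand: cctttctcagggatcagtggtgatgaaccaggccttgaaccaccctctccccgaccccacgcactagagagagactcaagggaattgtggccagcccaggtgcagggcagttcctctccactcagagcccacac
Jchain, chr5:88527892-88528147, minus strand: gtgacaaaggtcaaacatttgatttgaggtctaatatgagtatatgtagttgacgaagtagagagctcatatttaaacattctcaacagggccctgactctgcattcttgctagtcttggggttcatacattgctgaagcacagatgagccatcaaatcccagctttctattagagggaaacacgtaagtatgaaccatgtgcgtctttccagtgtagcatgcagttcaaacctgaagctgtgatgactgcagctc
Cd22, chr7:30879029-30879176, minus strand: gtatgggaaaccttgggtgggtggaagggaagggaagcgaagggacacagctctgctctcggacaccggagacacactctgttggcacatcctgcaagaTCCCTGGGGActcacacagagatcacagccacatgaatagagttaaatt
The motifs searched on both strands of the 4 windows of 300 bases were the octamer bound by Oct factors (ATGCAAAT), the palindrome of the B lineage factor Ebf1 (TCCC and GGGA with any 2 bases between), a PU.1 site (GAGGAAGT) and the interferon response element (GAAA and GAAA with any 2 bases between). The Ebf1 letters were found in the Cd22 window, beginning 49 bases before the RefSeq start site, and in 0.904% of 32851 promoters of the same length. The octamer was in 1.74% of them, the PU.1 letters in 3.20% and the interferon element in 3.44%, and none of these was found in the 4 windows. These are matches of letters only.

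The plot of levels by group shows that the spread between tumours of a group was larger than the differences between groups for most of the genes.

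**Figure D1:**
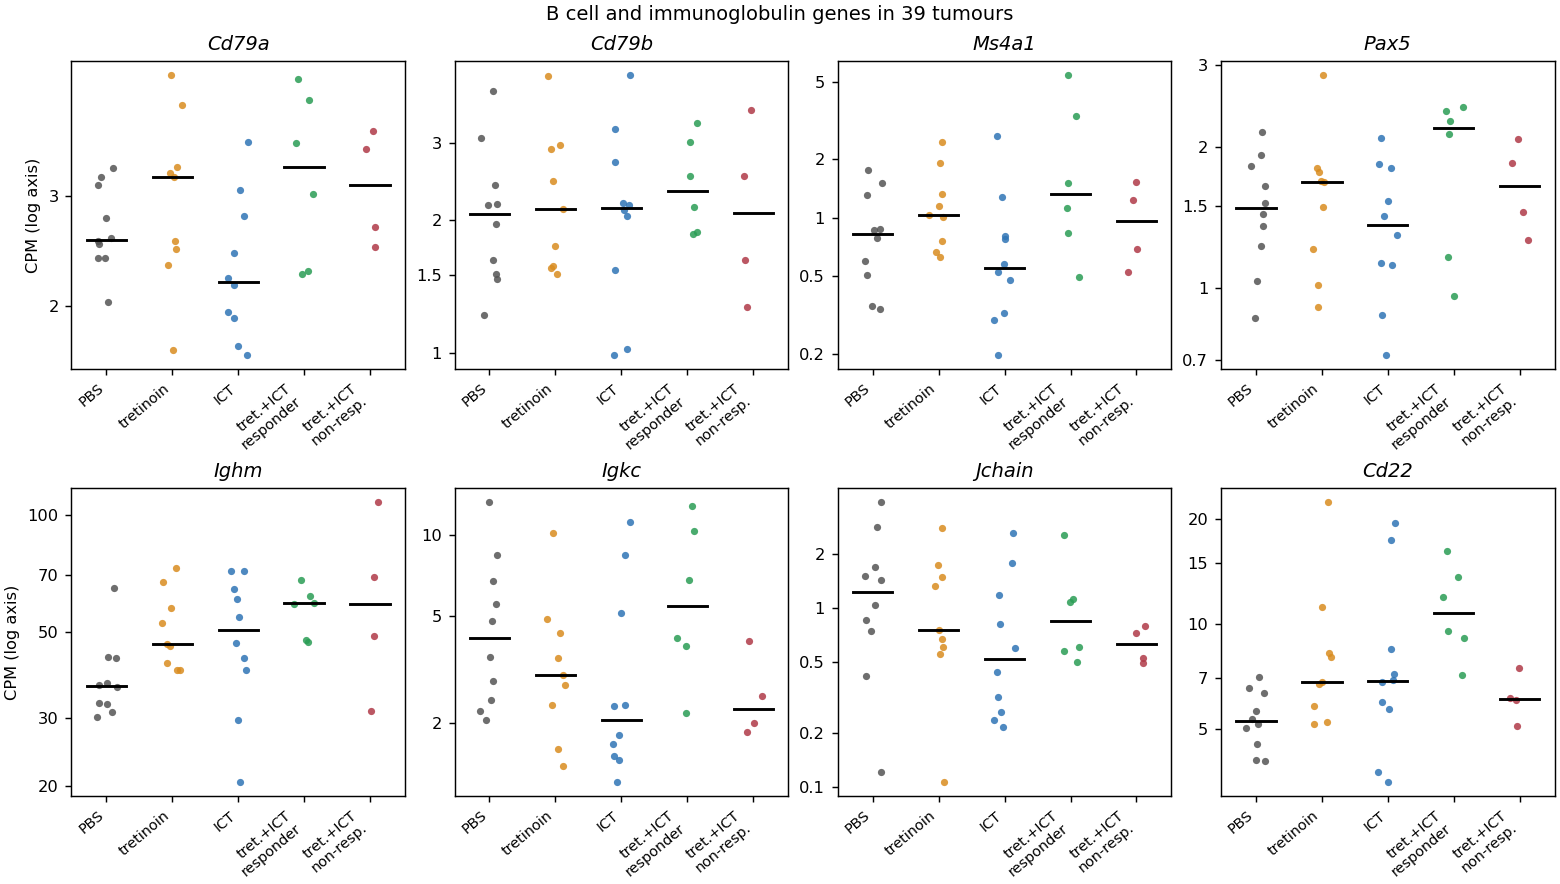
Level of each gene in CPM (log axis) in every tumour, by group, with a black line at the group median. For all 8 genes the groups overlap, Ighm lies between 20.5 and 107.8 CPM while Jchain lies between 0.107 and 3.91 CPM, and single tumours stand above their group in Igkc, Ms4a1, Jchain and Cd22.

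Cd79a and Cd79b code for the signalling pair of the B cell receptor, and lie on chromosome 7 (24897381-24902197, plus strand) and chromosome 11 (106311341-106314762, minus strand) of GRCm38. Cd79a was at 2.03 to 3.32 CPM in PBS tumours (median 2.55, n = 10) and at 1.70 to 4.68 CPM in tretinoin tumours (median 3.21, n = 9). It was at 1.67 to 3.65 CPM in ICT tumours (median 2.18, n = 10) and at 2.25 to 4.61 CPM in tretinoin+ICT tumours (median 3.29, n = 10). ICT tumours lay lowest and 4 of 10 fell under every PBS tumour, and all 10 tretinoin+ICT tumours lay above the ICT median, but no pair of groups was separate. The difference of tretinoin+ICT from ICT was 0.48 on the log2 scale (SE 0.17, 95% interval 0.13 to 0.82, edgeR adjusted p = 0.154). It became significant in edgeR when ICT replicate 3 was left out (log2 0.57, adjusted p = 0.0404), and in the 20 such fits the adjusted p reached 0.248. Cd79b was flatter, with group medians of 2.06 (PBS), 2.12 (tretinoin), 2.14 (ICT) and 2.33 CPM (tretinoin+ICT) and a range of 0.991 to 4.28 CPM over all tumours. Its largest log2 difference between treatments was 0.15 (SE 0.21, 95% interval -0.29 to 0.60), for tretinoin+ICT against PBS.

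Ms4a1 (CD20, a membrane protein of mature B cells, chromosome 19, 11249675-11266241, minus strand) varied most between tumours among the genes of the B cell surface. Its level ran from 0.340 to 1.76 CPM with a median of 0.826 in PBS tumours and from 0.631 to 2.45 CPM with a median of 1.03 in tretinoin tumours. ICT tumours were at 0.198 to 2.63 CPM (median 0.550) and tretinoin+ICT tumours at 0.498 to 5.41 CPM (median 1.18). The upper ends came from ICT replicate 3 and responder replicate 3, and the groups overlapped throughout. The log2 difference of tretinoin+ICT was 1.09 from ICT (SE 0.48, 95% interval 0.09 to 2.09, adjusted p = 0.245) and 0.94 from PBS (SE 0.43, 95% interval 0.05 to 1.82, adjusted p = 0.0734). Without responder replicate 3 these differences were 0.69 and 0.54. Ms4a1 overlaps an antisense gene, 4930526L06Rik, and Pax5 overlaps 3, and the strand setting of the counting is not given in the sources used here, so reads of the partner cannot be told apart.

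Pax5, the transcription factor that holds B cell identity (chromosome 4, 44524757-44710487, minus strand), had medians of 1.48 (PBS), 1.69 (tretinoin), 1.36 (ICT) and 1.97 CPM (tretinoin+ICT). It ranged from 0.718 CPM in ICT replicate 5 to 2.86 CPM in tretinoin replicate 6. The 95% intervals of its 5 log2 differences between treatments reached at most 0.81 and at least -0.51, and each held 0.

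Cd22, an inhibitory co-receptor that binds sialic acid (chromosome 7, 30865402-30880342, minus strand), was higher in tretinoin and in tretinoin+ICT tumours than in PBS tumours. It was at 4.04 to 7.06 CPM in PBS tumours with a median of 5.25, and at 5.15 to 22.4 CPM in tretinoin tumours with a median of 6.81. ICT tumours were at 3.52 to 19.5 CPM (median 6.86) and tretinoin+ICT tumours at 5.10 to 16.2 CPM (median 8.28). Of the tretinoin+ICT tumours, 7 of 10 lay above every PBS tumour, as did 4 of 9 tretinoin and 4 of 10 ICT tumours. The log2 difference from PBS was 0.73 for tretinoin (SE 0.24, 95% interval 0.24 to 1.23, adjusted p = 0.0343), 0.67 for ICT (SE 0.27, 95% interval 0.11 to 1.23, adjusted p = 0.0786) and 0.80 for tretinoin+ICT (SE 0.19, 95% interval 0.41 to 1.19, adjusted p = 0.00148). These share the PBS tumours. Those of tretinoin and of tretinoin+ICT passed the adjusted p but not the fold change minimum. Without tretinoin replicate 3, at 22.4 CPM, the tretinoin difference was 0.42, and without ICT replicate 3 the ICT difference was 0.45. The tretinoin difference missed the adjusted p in 7 of 19 fits that left out 1 tumour, up to 0.0605. For tretinoin+ICT against PBS the adjusted p stayed at or under 0.00361 in all 20 fits that left out 1 tumour. An antisense gene, Gm29439, overlaps Cd22.

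Ighm, the constant region of the IgM heavy chain (chromosome 12, 113418558-113422730, minus strand), was at 30.2 to 64.7 CPM in PBS tumours with a median of 36.2. It was at 39.8 to 73.0 CPM (median 46.5) in tretinoin tumours, at 20.5 to 71.8 CPM (median 50.6) in ICT tumours and at 31.3 to 107.8 CPM (median 59.2) in tretinoin+ICT tumours. All 9 tretinoin tumours and 9 of 10 tretinoin+ICT tumours lay above the PBS median, while the ICT group spread both above and under the PBS range. The log2 difference from PBS was 0.43 for tretinoin (SE 0.15, 95% interval 0.12 to 0.73, adjusted p = 0.0460) and 0.65 for tretinoin+ICT (SE 0.18, 95% interval 0.28 to 1.02, adjusted p = 0.00503). For ICT it was 0.38 (SE 0.20, 95% interval -0.03 to 0.80, adjusted p = 0.164). The tretinoin difference was close to the threshold: in 14 of 19 fits that left out 1 tumour its adjusted p was above 0.05, up to 0.0999. The tretinoin+ICT difference stayed at or under 0.0103 in all 20 such fits.

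Igkc, the constant region of the kappa light chain (chromosome 6, 70726435-70726966, plus strand), had no difference that passed the test. PBS tumours were at 2.05 to 13.2 CPM (median 4.15), tretinoin tumours at 1.39 to 10.2 CPM (median 3.03), ICT tumours at 1.22 to 11.1 CPM (median 2.07) and tretinoin+ICT tumours at 1.86 to 12.8 CPM (median 3.95). Each group held both low tumours and 1 or more at several times its median, so that the ranges nearly coincided. Its log2 difference from PBS was -0.44 for tretinoin (95% interval -1.27 to 0.40), -0.48 for ICT (95% interval -1.43 to 0.47) and -0.01 for tretinoin+ICT (95% interval -0.86 to 0.85).

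Jchain, which links IgM and IgA units (chromosome 5, 88519809-88527891, minus strand), had its highest median in PBS tumours, at 1.24 CPM (range 0.121 to 3.91). The medians were 0.758 CPM with tretinoin (range 0.107 to 2.82), 0.518 CPM with ICT (range 0.217 to 2.63) and 0.666 CPM with tretinoin+ICT (range 0.494 to 2.57). Only 1 of 10 tretinoin+ICT and 2 of 10 ICT tumours lay above the PBS median. The log2 difference from PBS was -0.66 for tretinoin+ICT (SE 0.43, 95% interval -1.55 to 0.23, adjusted p = 0.205) and -0.79 for ICT (SE 0.51, 95% interval -1.85 to 0.27, adjusted p = 0.269). Without responder replicate 1, which held the highest value of its group, the former was -1.01 (adjusted p = 0.0452).

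Per kilobase of exon the order of the medians over all tumours was Ighm at 24.8 CPM per kb, Igkc at 5.69, Cd79a at 1.76, Cd79b at 1.496, Cd22 at 1.33, Jchain at 0.301, Pax5 at 0.172 and Ms4a1 at 0.135. The values of Cd79a, Cd79b and Cd22 lay within each other's spread between tumours.

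No member was called in any comparison by edgeR at an adjusted p under 0.05 together with a log2 difference of 1 or more in either direction. Of all genes tested, this rule called 1.62% for tretinoin against PBS and 2.35% for ICT against PBS. For the combination it called 5.92% against PBS, 2.08% against tretinoin alone and 0.394% against ICT alone. By the adjusted p alone, 2 of the 8 (Ighm and Cd22, both higher) passed for tretinoin against PBS, where 20.4% of all genes did, and the same 2 passed for tretinoin+ICT against PBS, where 50.3% did. None passed for ICT against PBS (21.2% of all genes), nor for the combination against ICT alone (1.99%) or tretinoin alone (21.4%). An unadjusted p under 0.05 was found for 2 of the 8 with tretinoin (35.29% of all genes) and 1 with ICT (36.45%), each against PBS. For the combination it was found for 4 against PBS (55.98% of all genes), 2 against ICT (18.1%) and 0 against tretinoin (37.78%). The shares of the 8 genes were thus near or under those of all genes. DESeq2 called 0 members by both criteria in these 5 comparisons, and its adjusted p passed for the same 2 genes where edgeR's did, and for 1 (Cd22) in ICT against PBS. The interaction of tretinoin and ICT passed for 0 members in edgeR (0.307% of 14977 genes), with 0 at an unadjusted p under 0.05 and 0 in DESeq2. The median log2 difference of the 8 was 0.30 for tretinoin+ICT against PBS and 0.32 for tretinoin+ICT against ICT, where the medians of all genes were -0.0129 and -0.0049. Each treatment came from 2 series of sample names and no series held 2 treatments, so series and treatment cannot be told apart. Ighm and Cd22 were each higher in 4 of 4 pairs of series for tretinoin against PBS (log2 0.39 to 0.45 and 0.29 to 1.02) and for tretinoin+ICT against PBS (log2 0.39 to 0.86 and 0.63 to 0.94). So were Cd79a and Ms4a1, which did not pass the test, in both comparisons, and Pax5 for tretinoin+ICT against PBS.

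**Figure D2:**
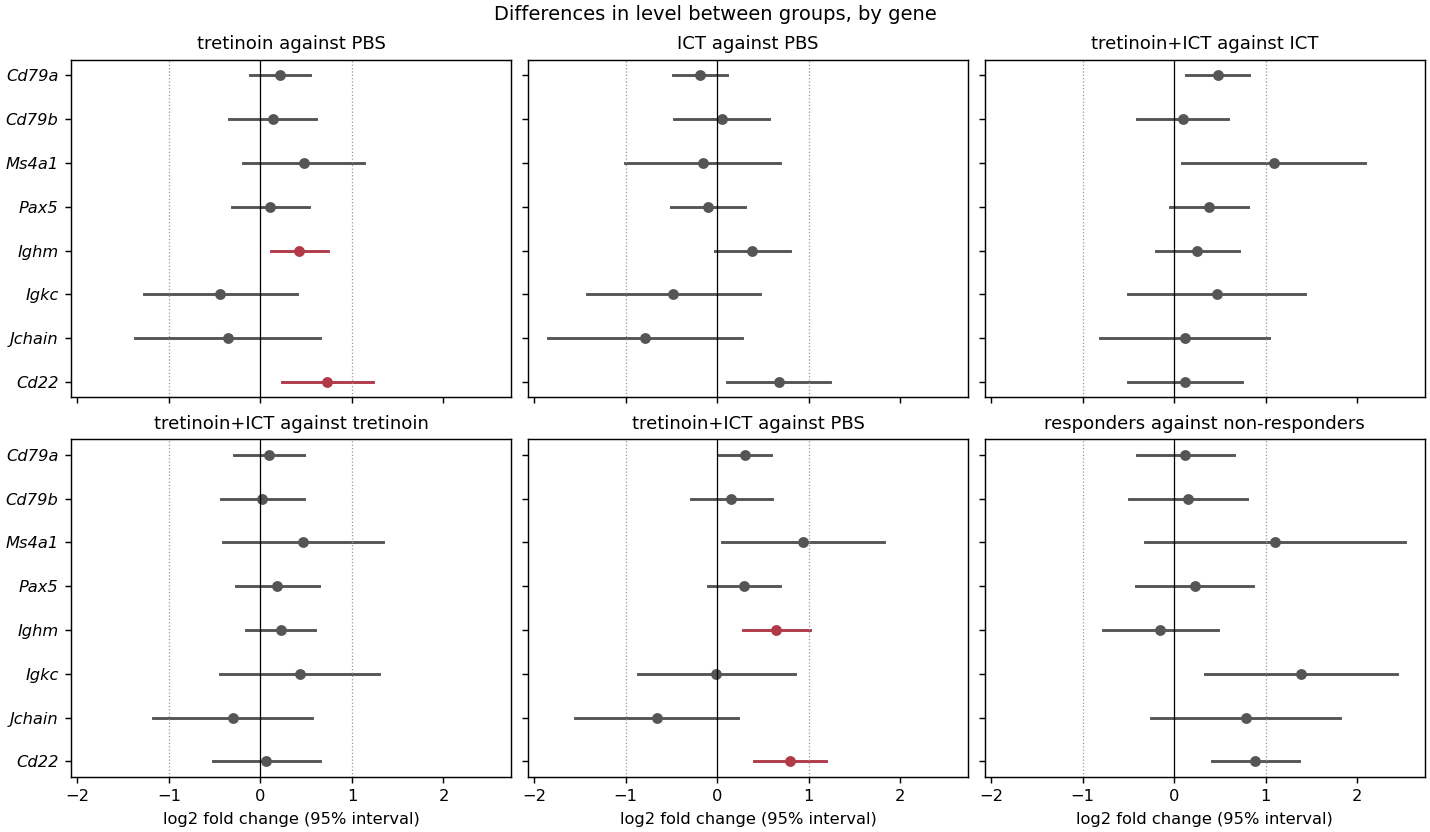
Log2 fold change of each gene (points) with its 95% interval (bars) from edgeR in 6 comparisons, with dotted lines at -1 and 1 and red for an adjusted p under 0.05. Red marks Ighm and Cd22 for tretinoin against PBS (0.43 and 0.73) and for tretinoin+ICT against PBS (0.65 and 0.80), and the intervals of Ms4a1, Igkc and Jchain are the widest.

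Responders and non-responders were compared to ask whether the genes differed with the later outcome. Cd22 was at 7.12 to 16.2 CPM in the 6 responders (median 10.7), and at 6.10, 5.10, 6.05 and 7.46 CPM in the 4 non-responders. Of the responders, 5 of 6 lay above every non-responder. Igkc was at 2.18 to 12.8 CPM in responders (median 5.47) and at 4.03, 2.52, 1.86 and 2.01 CPM in non-responders, so that 4 of 6 responders lay above all 4. The log2 difference was 0.89 for Cd22 (SE 0.22, 95% interval 0.41 to 1.36, adjusted p = 0.0857) and 1.38 for Igkc (SE 0.48, 95% interval 0.34 to 2.43, adjusted p = 0.125). By edgeR 0 members passed by the adjusted p with or without the fold change minimum, and so did 0% of the 14604 genes tested, while 2 of the 8 members had an unadjusted p under 0.05, as did 22.61% of all genes. DESeq2 called 1 member, Igkc (log2 1.37, adjusted p = 0.0218), and its adjusted p also passed for Cd22 (log2 0.88, adjusted p = 0.00470). With DESeq2, 120 of all genes were called. The paper, also with DESeq2, reports a larger number of called genes and lists Cd22 among those higher in responders. In edgeR without responder replicate 5, Igkc was called (log2 1.54, adjusted p = 0.0351) and Cd22 had an adjusted p of 0.0132.

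The responder and non-responder tumours came from 2 series of sample names, with 2 responders and 3 non-responders in the one and 4 and 1 in the other. Cd22 was higher in responders in both, by 1.07 and 0.45 on the log2 scale, and so was Igkc, by 1.42 and 1.26. With the name series as a block the log2 differences were 0.89 (adjusted p = 0.130) and 1.59 (adjusted p = 0.142). The summed level of macrophage and monocyte markers was 3650 to 4632 CPM in responders and 3088 to 3532 CPM in non-responders, and that of T cell markers 168.3 to 349.8 and 154.8 to 224.1 CPM. Their part in the differences of Cd22 and Igkc was not tested. Jchain was at 0.498 to 2.57 CPM in responders and at 0.728, 0.494, 0.524 and 0.793 CPM in non-responders, and 3 of 6 responders lay above all 4. Ighm went the other way, at 47.1 to 68.0 CPM in responders and at 69.3, 107.8, 48.6 and 31.3 CPM in non-responders, and its sign turned with the series block (log2 -0.15 without it and 0.11 with it). Pax5 in responders fell both under and over the non-responders, with 2 tumours under all 4 and 4 above them.

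The counts of the 8 heavy chain constant genes were compared. Ighm held 36329 of these counts over the 39 tumours, Igha 1212, Ighd 643 and Ighg2b 270, while Ighg1, Ighg2c, Ighg3 and Ighe had 65, 18, 12 and 5. BALB/c mice carry Ighg2a in place of the Ighg2c of the reference strain, so that the row of Ighg2c may miss reads. The shares below are of counts and not of B cells by class. Over the 39 tumours the median was 14.8 Ighm counts for each Igkc count and 64.9 for each heavy chain variable (Ighv) count. Whether the Ighm counts came from rearranged immunoglobulin of B cells was not tested. The share of Ighm was 90.5% ± 6.86 (SD, n = 10) in PBS tumours, 93.7% ± 2.75 (n = 9) with tretinoin, 95.4% ± 2.51 (n = 10) with ICT and 96.4% ± 1.07 (n = 10) with tretinoin+ICT. The lowest shares were those of PBS replicate 7 (75.78%, exact 95% binomial interval 72.7 to 78.7) and PBS replicate 10 (81.03%, 78.3 to 83.5), intervals that cover counting error only.

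Tretinoin+ICT tumours had a larger Ighm share than PBS tumours by 5.90 percentage points (permutation test of 100000 resamples, p = 0.00072, adjusted over 6 comparisons 0.00432) and than tretinoin tumours by 2.73 points (exact permutation test, p = 0.00448, adjusted 0.0134). All 10 tretinoin+ICT tumours lay above the median of each of these groups. Without PBS replicates 7 and 10 the former difference was 2.88 points (exact permutation test, adjusted p = 0.0135). The difference of ICT from PBS was 4.85 points (adjusted p = 0.0533) and fell to 1.82 points (adjusted p = 0.219) without these 2 tumours, and that of tretinoin from PBS was 3.17 points (adjusted p = 0.241) and fell to 0.146 points. The difference of tretinoin+ICT from ICT was 1.06 points (adjusted p = 0.241). All tests were two-sided.

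Responders had a smaller share of Ighm among the heavy chain constant counts than non-responders. The shares of the non-responders were 97.33%, 97.47%, 97.55% and 97.37%, and those of the responders were 94.26 to 96.45%, so that the groups did not overlap. The difference was -1.68 points (exact permutation test, p = 0.00952, the smallest that 6 against 4 can give, adjusted p = 0.0190), and it was -2.40 and -1.27 points in the 2 name series. It missed the threshold when Ighd was left out of the denominator (-1.47 points, adjusted p = 0.0571).

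**Figure D3:**
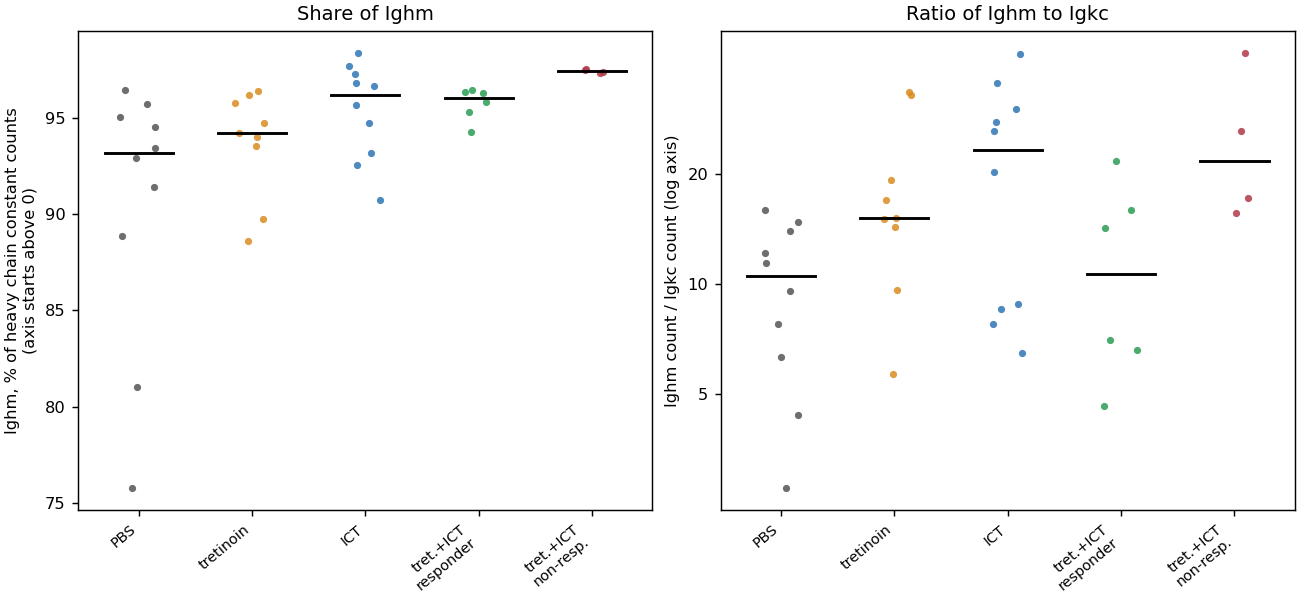
Left, Ighm as a percent of the counts of the 8 heavy chain constant genes in every tumour, on an axis that starts above 0. Right, the ratio of Ighm to Igkc counts on a log axis. Lines are group medians, and PBS replicates 7 (75.78%) and 10 (81.03%) lie lowest on the left while the 4 non-responders lie within 97.33 to 97.55%.

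Igha, the IgA heavy chain and no member, differed in the other direction from Ighm. It was called lower for tretinoin+ICT against PBS (log2 -1.76, SE 0.54, adjusted p = 0.0102) and against tretinoin (log2 -1.31, SE 0.44, adjusted p = 0.0416). Its level was 0.465 to 7.81 CPM in PBS tumours (median 2.21) and 0.0549 to 1.91 CPM in tretinoin+ICT tumours (median 0.875). Ighd, the IgD heavy chain of naive B cells, was higher for tretinoin+ICT against PBS by the adjusted p alone (log2 0.92, SE 0.26, adjusted p = 0.00630). Of the 12 constant genes, 5 were tested in that comparison, of which 0 were called higher and 1 lower.

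Variable gene rows offered a readout of rearranged immunoglobulin that the choice of genes did not use. Of 346 rows of Ighv, Igkv and Iglv genes 190 had a count, and the reference strain differs from BALB/c in this region. A tumour held 10 to 348 such counts (median 56) in 9 to 75 rows (median 30). Responder replicate 1 had the most, with 348 counts in 75 rows, and ICT replicate 1 the fewest. The row with most counts took 5.48% to 33.3% of a tumour's variable counts (median 11.7%). In PBS replicate 10 it was Igkv4-59 with 56 of 175 counts, and over the 39 tumours Igkv14-111 was the top row in 10.

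Ighm was set against the light chain and against the heavy chain variable rows. There were 2.76 to 42.7 Ighm counts for each Igkc count (median 14.8), and 12.3 to 326 for each count on an Ighv row (median 64.9). The ratio to Igkc was lowest in PBS replicate 7 and highest in non-responder replicate 2. The non-responders had ratios of 15.6 to 42.7 and the responders of 4.62 to 21.6, with overlap.

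Across the tumours, centred within the 5 groups, all 28 pairs of the 8 genes had a positive Pearson r and 19 passed an adjusted p under 0.05 (permutation within groups, 100000 resamples), as did 18 by Spearman's rho. The closest pair was Igkc and Jchain, with r = 0.85 (permutation adjusted p = 0.00028, from the smallest p the permutations can give) and rho = 0.85 (adjusted p = 0.00028). Without ICT replicate 3 and tretinoin replicate 3 its r was 0.81, and within groups r was 0.90 (PBS), 0.84 (tretinoin), 0.93 (ICT) and 0.72 (responders). Next were Cd79b with Ighm (r = 0.67, adjusted p = 0.000392, rho = 0.57, adjusted p = 0.00515) and Ms4a1 with Igkc (r = 0.67, adjusted p = 0.000392, rho = 0.55, adjusted p = 0.00515), which kept r of 0.60 and 0.59 without 2 tumours. Cd79b with Ighm ranged from r = 0.04 in tretinoin tumours to 0.80 in ICT tumours.

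Cd79a and Cd79b, whose products form 1 complex, had r = 0.39 (adjusted p = 0.0311) and rho = 0.38 (adjusted p = 0.0437), with r = -0.49 within PBS tumours and 0.76 within tretinoin tumours. Without the 2 tumours farthest from the median r was 0.33. Cd79a with Ighm had r = 0.07 (permutation adjusted p = 0.695) and rho = 0.02 (adjusted p = 0.896). Ighm with Cd22, the 2 genes that were higher with tretinoin+ICT, had r = 0.24 (adjusted p = 0.229) and rho = 0.14 (adjusted p = 0.448).

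The same test was run of each gene with 4 summed levels, of variable gene rows and of macrophage, T cell and plasmacytoid dendritic cell markers, which gave 32 relations of which 22 passed by r and 23 by rho. Igkc followed the variable rows with r = 0.87 (adjusted p = 4.57e-05, rho = 0.83, adjusted p = 0.000107) and Jchain with r = 0.84 (adjusted p = 4.57e-05, rho = 0.86, adjusted p = 0.000107), and without 2 tumours r was 0.85 and 0.86. Ms4a1 had r = 0.74 with them (adjusted p = 7.11e-05, rho = 0.67, adjusted p = 0.00032), and 0.66 without 2 tumours. Ighm had r = 0.25 with the variable rows (adjusted p = 0.163, rho = 0.28, adjusted p = 0.123). The relation of Ighm with the variable rows over all 39 tumours was therefore not detectable by this test. Without ICT replicate 10 and non-responder replicate 2 its r was 0.36. Within groups r was 0.24 (PBS), 0.57 (tretinoin), 0.20 (ICT) and 0.74 (responders).

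Ighm was closest to the summed list of plasmacytoid dendritic cell markers, with r = 0.76 (adjusted p = 4.57e-05, rho = 0.78, adjusted p = 0.000107), and had r = 0.60 with macrophage markers (permutation adjusted p = 0.000411, rho = 0.51, adjusted p = 0.00352) and 0.67 with T cell markers (adjusted p = 4.57e-05, rho = 0.61, adjusted p = 0.000503). Without ICT replicate 10 and non-responder replicate 2 these were 0.73, 0.60 and 0.63. Cd22 had r = 0.74 with macrophage markers (permutation adjusted p = 0.000128, rho = 0.56, adjusted p = 0.00282) and 0.75 with T cell markers (adjusted p = 7.11e-05, rho = 0.57, adjusted p = 0.00192), but 0.13 with plasmacytoid dendritic cell markers (adjusted p = 0.468, rho = 0.11, adjusted p = 0.544). Without tretinoin replicate 3 and ICT replicate 3 these were 0.56, 0.63 and 0.05. The summed macrophage markers were at 2062 to 3306 CPM in PBS tumours and 3088 to 4632 CPM in tretinoin+ICT tumours, and those of plasmacytoid dendritic cells at 408.0 to 518.9 and 458.3 to 626.6 CPM. The latter sum was carried by Tcf4, Bst2 and Runx2, genes that other cells make too. Of these the interferon-induced Bst2 was higher in tretinoin+ICT than in PBS tumours by the edgeR adjusted p alone (median 140.0 and 272.4 CPM, log2 0.93, adjusted p = 5.38e-05) and Tcf4 was lower (median 214.3 and 192.1 CPM, log2 -0.24). Siglech, which defines plasmacytoid dendritic cells, had medians of 10.41 and 10.42 CPM. The part of these markers in the higher Ighm and Cd22 was not tested.

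**Figure D4:**
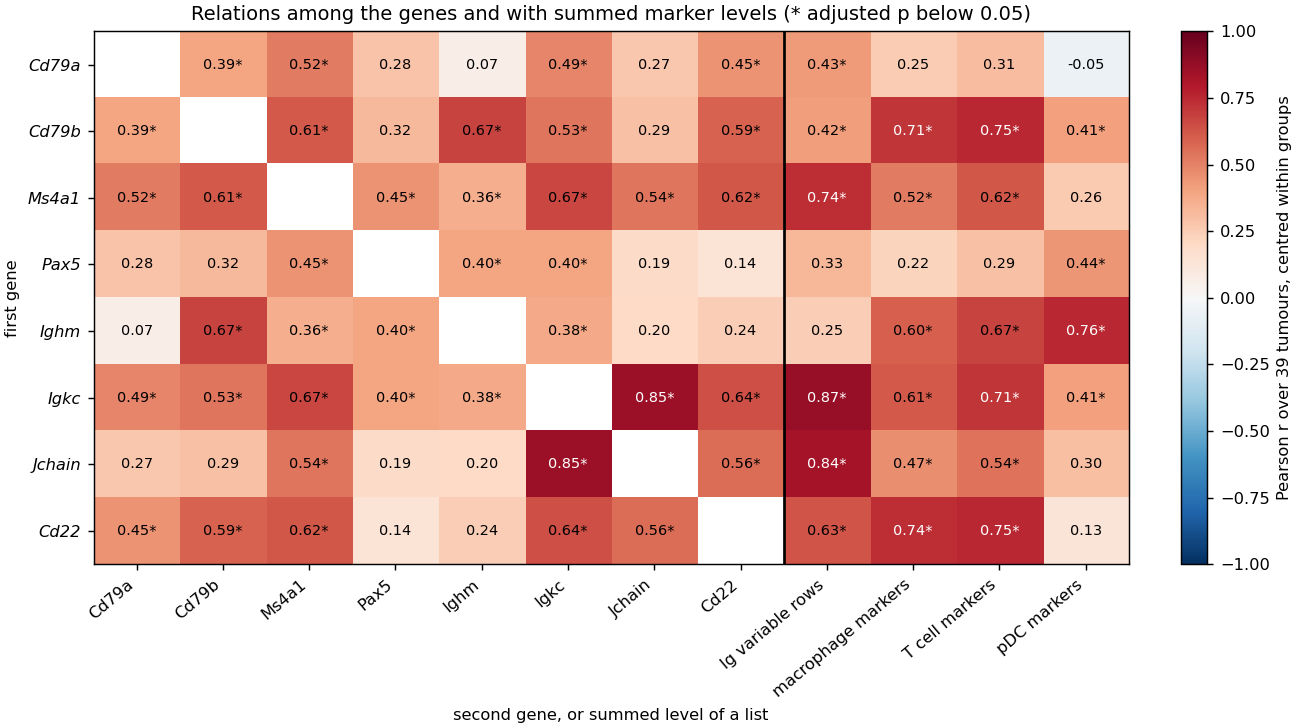
Pearson r over 39 tumours, centred within groups, between the 8 genes (left of the line) and with summed levels of variable gene rows and of markers of 3 other cell types (right of it). Asterisks mark an adjusted p under 0.05, and the darkest cells are Igkc with Jchain (0.85) and both with the variable rows (0.87 and 0.84).

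The genes most like a member over the 39 tumours differed between members. The 10 genes nearest to Igkc, members aside, were led by Ubxn11 (r = 0.80), Tspan33 (r = 0.77), Arl5c (r = 0.76) and Slamf7 (r = 0.75), and included H2-Ob (r = 0.74). Those nearest to Cd79a had lower r, led by Naxd (0.59), Hsdl1 (0.58) and Lsp1 (0.57), with the B cell tetraspanin Cd37 (0.55) among them. The neighbours of the other members were listed after values were seen. Among the nearest to Ighm were Klra2 (r = 0.91), Cd180 (r = 0.90) and Lcp1 (r = 0.88). For Cd22 they were P2rx4 (r = 0.93), the dendritic cell integrin Itgax (r = 0.89) and Ccl5 (r = 0.87), and for Jchain Igha led (r = 0.805). Clec4a1 (r = 0.83) and Lst1 (r = 0.82) led for Cd79b, Ifi208 (r = 0.63) for Pax5 and Sowahc (r = 0.74) for Ms4a1.

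High levels gathered in a few tumours. Responder replicate 1 was among the 5 highest of 39 for 7 of the 8 genes, all but Ighm. Tretinoin replicate 3 was among them for 6 and ICT replicate 3 for 5. Responder replicate 3, ICT replicate 7, tretinoin replicate 6 and PBS replicate 7 each were for 3. These tumours lay in all 4 treatment groups.

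Other genes of B cells were counted by list, and those named without being called were chosen after their values were seen. For tretinoin+ICT against PBS, the comparison with the most calls, each count is to be read against 5.92% of all genes called and 50.3% past the adjusted p. Of 13 mature B cell genes tested for tretinoin+ICT against PBS, 6 were higher and 1 lower by the adjusted p alone. The median log2 difference of this list was 0.38. Spib (log2 0.91, SE 0.17), H2-Ob (log2 0.86, SE 0.22) and Bank1 (log2 0.85, SE 0.21) were among the higher, and Ebf1 was the lower one (log2 -0.39, SE 0.09, adjusted p = 0.00165). In the other comparisons of groups 0 of the mature B cell genes tested were called, where the rule called at most 2.35% of all genes. Early B lineage genes were close to 0, with a summed level of 0 to 0.650 CPM, and none was tested.

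Of the plasma cell list 8 genes were tested for tretinoin+ICT against PBS, and 3 were called higher, Irf4 (log2 1.57, SE 0.19), Ly6c2 (log2 2.201, SE 0.31) and Slamf7 (log2 1.40, SE 0.26), which are also made by other leukocytes. Sdc1 (CD138, also an epithelial proteoglycan) and Txndc5 were lower by the adjusted p alone (log2 -0.37 and -0.28), and Tnfrsf17 (BCMA, the plasma cell receptor for survival factors) reached at most 0.641 CPM in any tumour. Irf4 was also called higher for tretinoin against PBS (log2 1.01), and Ly6c2 (log2 1.66) and Slamf7 (log2 1.46) for ICT against PBS. Of 4 germinal centre genes tested 0 were called in any comparison, where the rule called at most 5.92% of all genes. For tretinoin+ICT against PBS 3 were higher by the adjusted p alone, among them Bcl6 (log2 0.49) and Gcsam (log2 0.48).

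Among 10 genes of B cell recruitment and survival tested for tretinoin+ICT against PBS, 4 were called higher and 1 lower. The survival factor Tnfsf13b (BAFF) was higher (log2 1.47, SE 0.16, adjusted p = 5.56e-07), as were Lta (log2 1.78, SE 0.24), Il6 (log2 1.04, SE 0.27) and the chemokine Ccl19 (log2 1.11, SE 0.31). Cxcl13, the chemokine that draws B cells into follicles, was lower (log2 -1.53, SE 0.25, adjusted p = 5.4e-05), at 21.9 to 73.3 CPM in PBS tumours and at most 27.3 CPM with tretinoin+ICT. Tnfsf13b was also called higher for tretinoin against PBS (log2 1.12, SE 0.20), and Lta for ICT against PBS (log2 1.32, SE 0.32). Of 16 genes of B cell receptor signalling tested for tretinoin+ICT against PBS 13 were higher by the adjusted p alone, among them Syk (log2 0.84), Plcg2 (log2 0.93) and Btk (log2 0.69), which myeloid cells make too. The list of lymph node stroma had 4 genes tested, with Ubd called higher (log2 2.98, SE 0.42) and Cxcl13 lower. Between responders and non-responders 0 genes of any list were called, but neither was any of the 14604 genes tested. That count therefore says nothing about the lists.

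As a check of the labelled tissue, the mesothelial genes Upk3b and Lrrn4 were at 0 in 36 and 15 of 39 tumours and reached at most 5 counts. Pdpn was at 57.9 to 75.7 CPM and Gas6 at 58.7 to 84.01 CPM in PBS tumours. Wt1, a transcription factor of mesothelium, was found in all 39 tumours, at 0.254 to 1.01 CPM in PBS and 0.672 to 5.41 CPM in tretinoin+ICT tumours, and was called higher in the latter (log2 2.39, SE 0.37, edgeR adjusted p = 2.71e-05). Muscle transcripts were present, with Acta1 at 123.6 to 515.2 CPM in PBS tumours.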

How the data were processed

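The authors sequenced RNA of 39 tumours (100 bp single-end reads), converted reads with bcl2fastq 2.20.0.422 and aligned them with HISAT2 2.0.4 to a genome they call mm11. The deposited values are raw counts per gene from SummariseOverlaps, and the strand setting and the treatment of reads that match several places are not given in the sources used here. Reads across V(D)J joins or from BALB/c alleles that differ from the reference may be lost. Gene positions came from GENCODE M21 on GRCm38, where 92.55% of IDs matched with their version and 7.0% without it.

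Groups came from the labels. Each pair of groups was fitted on its own tumours with edgeR 4.0.16 (R 4.3.3), with TMM normalization, a low count filter (filterByExpr) and a robust quasi-likelihood test over all genes, with Benjamini-Hochberg adjustment. The interaction was fitted over the 4 treatments. A gene was called at an adjusted p under 0.05 with a log2 difference of 1 or more in size. DESeq2 1.42.0 was an alternative, as were other filters, scaling by DESeq2 size factors, no robust prior, 1 fit of all tumours and leaving out each tumour. Exact and resampled permutation tests used scipy 1.17.1. Scripts were tested on simulated data. Total counts ran from 14033046 to 37951183 per tumour. The 8 genes and all lists were chosen with earlier results of these data known. The rule for named genes took every member, up to 4 called genes of a list per comparison by adjusted p (else those of highest level), and the 10 genes most like Cd79a and Igkc by Pearson r of log2 CPM among 13334 genes. The relations with summed markers and the neighbours of the other members were added after seeing the data. Listed genes without a row in the table used were not analysed here. Some items are not reported here.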

Additional observations from a re-analysis of the deposited data

Results flagged for a closer look

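In 40 sets of 1 gene in 1 group, 6 values stood apart from the rest of their group by Dixon's test. For independent sets of normally distributed values, chance gives this in about 1 in 20 groups. All 6 were the highest CPM of their group, and the genes were correlated across tumours, so that rate is only a rough guide. Ighm was at 64.72 CPM in PBS replicate 4, where the next PBS tumour was at 42.92 CPM. Tretinoin replicate 3 stood apart in Igkc (10.16 CPM, next 4.873) and in Cd22 (22.38 CPM, next 11.15). Pax5 was at 2.86 CPM in tretinoin replicate 6, with the next tumour at 1.803 CPM. Ms4a1 was at 2.634 CPM in ICT replicate 3 (next 1.283), and Jchain at 2.574 CPM in responder replicate 1, where the next responder was at 1.124 CPM.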

How the results depend on the processing

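Without the fold change minimum 2 members passed for tretinoin against PBS and 2 for tretinoin+ICT against PBS, and DESeq2 called 1 between responders and non-responders. Leaving out 1 tumour gave 0 to 1 members called for tretinoin+ICT against PBS (1 without PBS replicate 4, responder replicate 1, responder replicate 4 or non-responder replicate 3) and 0 to 1 between responders and non-responders (1 without responder replicate 5). For tretinoin against PBS, Ighm missed the adjusted p with no filter and in the fit of all tumours, and so did Cd22. The sign of some small log2 differences turned when 1 tumour was left out, with ranges of -0.0222 to 0.27 (Cd79b) and -0.0455 to 0.19 (Pax5) for tretinoin against PBS, and -0.10 to 0.19 (Cd79b) and -0.60 to 0.007 (Ms4a1) for ICT against PBS. The ranges were -0.23 to 0.52 (Jchain) and -0.0085 to 0.34 (Cd22) against ICT, and -0.0621 to 0.17 (Cd79b), -0.65 to 0.0006 (Jchain) and -0.0621 to 0.37 (Cd22) against tretinoin, both for tretinoin+ICT. They were -0.28 to 0.26 (Igkc) for tretinoin+ICT against PBS, and -0.0471 to 0.44 (Cd79b) and -0.38 to 0.19 (Ighm) between responders and non-responders. With the name series as a block Ighm was 0.1062 there, and the relation of Cd79a and Ighm had r = -0.0033 when centred within name series. The Ighm share of ICT against PBS passed without Ighd (5.165 points, adjusted p = 0.0465, permutation test) and as a log2 ratio (1.018, adjusted p = 0.0368), and ranged from 3.21 to 5.505 points when 1 tumour was left out, with 7 of 20 under the threshold. That of responders against non-responders missed it without Ighd (-1.474 points) and ranged from -1.818 to -1.381. The causes were not tested. Leave-outs for the treatment comparisons were chosen after seeing the data. No paired analysis was possible because the labels give no replicate numbers shared by animals of different groups. Jchain and Ms4a1, with as few as 2 and 3 counts in a tumour, are limited by depth.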
